A study of Mus musculus with 32 samples.

Results

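The normal lung of the mouse pup was compared between P14.5 and P2.5 (ages in days after birth), a span that covers most of alveolar development, in which the air sacs formed before birth are divided by new septa. The arrays were selected by their labels for age and oxygen. They were the 4 normoxia arrays of P2.5 (numbered 1 to 4) and the 4 normoxia arrays of P14.5 (numbered 25 to 28), which made up 8 of the 32 arrays of the study. All 1079 mouse microRNAs (miRNAs) named on the array were considered, and the 297 that lay well above background on all 4 arrays of at least 1 of the 2 ages were tested.

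The study profiled miRNAs in the lungs of newborn mice kept from the day of birth in normoxia (room air) or in hyperoxia, a model of bronchopulmonary dysplasia, and harvested at P2.5, P3.5, P5.5 or P14.5 with 4 pups per group. The methods describe C57Bl/6J mice, and no group carried a transgene or a drug treatment. Both groups compared here were normoxia pups and differed in age. Lungs were flushed with saline until they were white, and total RNA of the whole lung was hybridised to a 1-colour (Cy3) mouse miRNA array. The sample labels name pentobarbital for killing pups of P2.5 and isoflurane for pups of P14.5, while the methods name pentobarbital at all ages, and if the labels hold, the agent and the age cannot be told apart. Each array held 1 pup, so p-values measure the spread between pups of a group together with any difference between the slides the group lay on. In the comparison of P14.5 with P2.5 this spread was pooled over the normoxia arrays of all ages.

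An miRNA is a short RNA that guides a silencing complex to messenger RNAs, and its seed, the bases near its 5′ end, sets most of the pairing with its targets. miRNAs that share a seed form a family, and miRNAs whose genes lie close together are often cut from a shared transcript, from which either arm of the hairpin (5p or 3p) may give the mature product. In the lung, miRNAs of the miR-17-92 cluster are known for their part in the growth of the embryonic organ, the let-7 family for its rise as tissues mature, and the large imprinted Dlk1-Dio3 cluster for its high activity before birth.

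The sequences below are of the miRNAs on which the comparison turned, with the seed (bases 2 to 8) in capitals. They come from RefSeq (GRCm38.p6), which gave a mature sequence for 240 of the 297 miRNAs tested. Members of the let-7 family are shown because they share 1 seed but did not move alike.
let-7b-5p: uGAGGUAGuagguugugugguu
let-7c-5p: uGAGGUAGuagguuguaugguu
let-7i-5p: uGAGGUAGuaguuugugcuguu
miR-98-5p: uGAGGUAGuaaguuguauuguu
Members of the miR-15/16 family, which also share 1 seed, are shown because they moved in both directions.
miR-195-5p: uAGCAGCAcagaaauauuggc
miR-497-5p: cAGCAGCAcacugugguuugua
miR-16-5p: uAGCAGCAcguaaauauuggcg
miR-15b-5p: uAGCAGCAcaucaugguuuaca
miR-322-5p: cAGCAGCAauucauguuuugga
The miR-99/100 and miR-130 families are shown because the members of each that passed the test moved 1 way.
miR-99a-5p: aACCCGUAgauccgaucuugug
miR-100-5p: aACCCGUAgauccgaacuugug
miR-130a-3p: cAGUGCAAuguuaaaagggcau
miR-130b-3p: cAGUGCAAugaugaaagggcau
miR-301a-3p: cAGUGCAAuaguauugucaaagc
From the Dlk1-Dio3 cluster, 5 miRNAs with large falls and the member with the highest value of the difference, miR-494-3p, are shown, all with different seeds.
miR-411-3p: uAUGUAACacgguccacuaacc
miR-541-5p: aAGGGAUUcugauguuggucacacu
miR-431-5p: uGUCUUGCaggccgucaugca
miR-433-3p: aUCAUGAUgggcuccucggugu
miR-376a-3p: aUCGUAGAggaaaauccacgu
miR-494-3p: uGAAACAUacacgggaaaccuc
Of the largest rises, 6 are shown because they share neither a seed nor a cluster.
miR-5130: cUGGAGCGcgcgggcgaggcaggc
miR-1967: uGAGGAUCcuggggagaagaugc
miR-3472: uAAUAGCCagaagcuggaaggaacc
miR-483-5p: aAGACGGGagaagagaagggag
miR-1894-3p: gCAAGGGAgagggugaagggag
miR-671-5p: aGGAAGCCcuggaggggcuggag

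All values below are log2 of the scaled fluorescence signal of an miRNA, and differences are P14.5 minus P2.5 on that log2 scale. They compare an miRNA with itself between ages, and not the level of 1 miRNA with that of another. Between 285 and 307 miRNAs were well above background on each P2.5 array, and between 223 and 323 on each P14.5 array. Array 28 (P14.5) stood apart, since its labelling control of 2.42 (log10 signal) lay below the range the scanner software accepts and it had the lowest number of miRNAs above background. Without array 28 the same 297 miRNAs gave 217 that passed, against 218 with it. No slide held both ages. The P2.5 arrays lay on slides 1 and 2, and the P14.5 arrays on slide 4 (arrays 26 and 28) and slide 5 (arrays 25 and 27). The scan date followed the slide, with slides 1 and 2 scanned on date 1, slide 4 on date 2 and slide 5 on date 3. Slide, scan date and age therefore cannot be told apart in the direct comparison. A second contrast built only from ages that shared slides is given further on.

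Most miRNAs tested differed between the ages. More were lower than higher at P14.5, a split that depended on the scaling, the background correction and the detection filter. Of the 297 tested, 140 (47.1%) fell and 78 (26.3%) rose (limma, adjusted p under 0.05), which made 73.4% in either direction. The P2.5 and P14.5 arrays did not overlap for 213 miRNAs (71.7%). Counts of a family, cluster or cell type below are to be read beside these shares. Taking all 297 together, the median of the differences was -0.20. Scaling to the 75th percentile of all probes, in place of those detected on all arrays, moved this median to -0.62 and the split to 47 higher and 173 lower. The scanner software's total gene signal gave a median of -0.48 with 53 higher and 168 lower, and normexp background correction gave 0.064 with 57 higher and 48 lower. Small rises are therefore relative to the scaling. Among the larger changes, 76 miRNAs fell and 43 rose by over 1 log2 unit. In whole lung RNA, fewer cells of a type and less RNA per cell cannot be told apart.

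**Figure D1:**
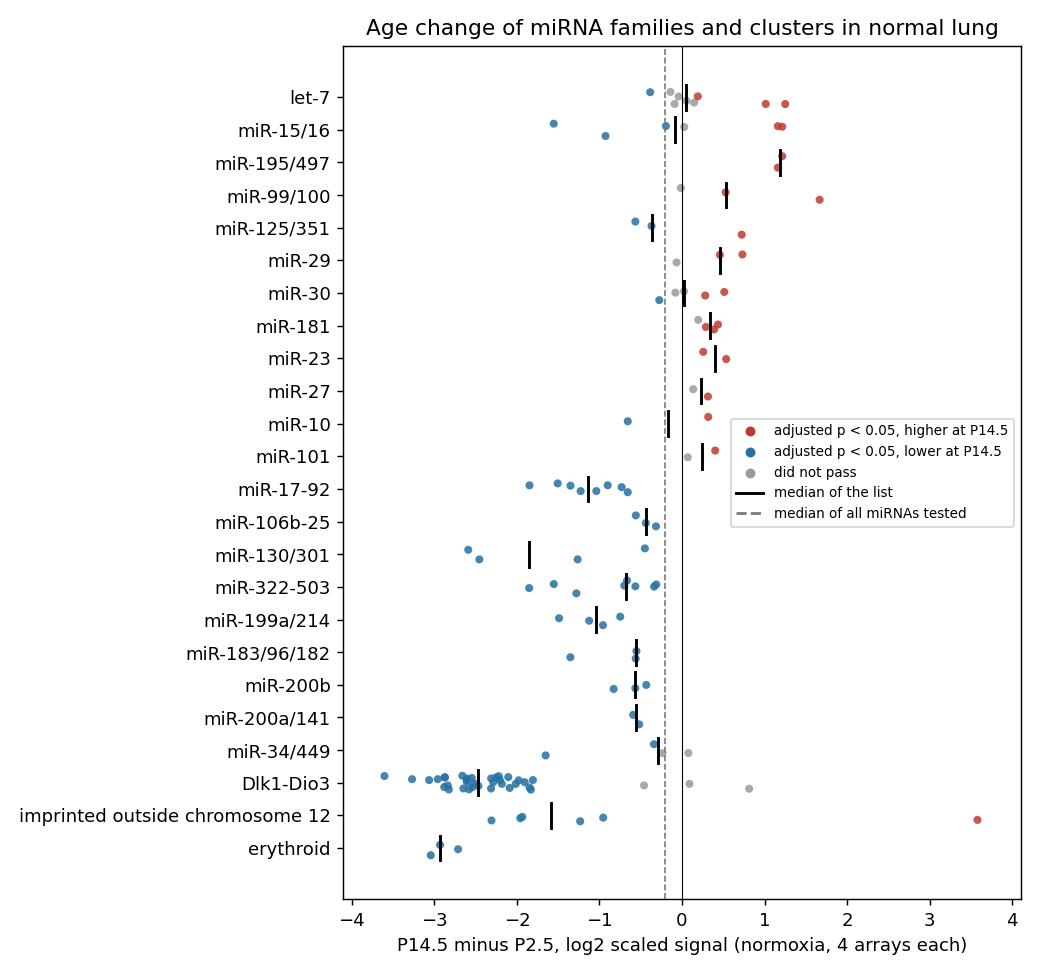
Difference between P14.5 and P2.5 normoxia arrays (x axis, log2 scaled signal) for the tested members of each family or cluster (y axis). Each point is 1 miRNA, coloured by whether limma called it higher, lower or neither at P14.5. The black bar is the median of the list, and the dashed line is the median of all 297 tested (-0.20). The Dlk1-Dio3 list lies far to the left with a median of -2.47, and the let-7 and miR-15/16 lists spread to both sides of 0.

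The Dlk1-Dio3 miRNAs fell almost as a block. The region is an imprinted locus of chromosome 12 whose miRNAs are expressed from the maternal copy, and its probes mapped to chr12:110801930-110833597 and chr12:110947280-110986159 (mm9). Of 104 miRNAs listed for it, 101 were on the array, 37 were tested, 34 fell and 3 did not pass. The share that fell among all miRNAs tested was 47.1%. The median of the 37 was -2.47, their arrays did not overlap for 35, and they supplied 34 of the 76 falls of over 1 log2 unit. All 37 lay well above background on every P2.5 array. At P14.5, 17 lay above background on no array and 11 on every array, and the median difference of those 11 was -2.09. The members outside these 11 were tested only through their P2.5 signal, so the count of falls is partly set by the detection filter. Under normexp correction 12 of the 37 fell and their median was -0.26.

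miR-376a-3p, which was measured above background at both ages, read 7.76, 7.46, 7.52 and 7.98 on the P2.5 arrays and 4.81, 4.90, 4.8 and 4.71 on the P14.5 arrays. All P14.5 arrays lay more than 2 log2 units below all P2.5 arrays. It fell by 2.87 (SE 0.15, adjusted p = 5.68e-10). miR-431-5p read 5.36, 5.11, 5.10 and 5.76 on the P2.5 arrays and 2.23, 2.57, 2.26 and 2.02 on the P14.5 arrays and was well above background on 1 of the P14.5 arrays. Its groups were as far apart, and it fell by 3.06 (SE 0.23, adjusted p = 1.65e-08). The next 6 miRNAs were well above background on all P2.5 arrays and on no P14.5 array, so their fold is given as a lower bound. The bound sets the mean of the brighter group against the mean, per array, of the higher of the array's detection limit and the miRNA's own signal. miR-411-3p read 5.12, 4.73, 4.66 and 5.33 on the P2.5 arrays and 1.20, 1.82, 1.20 and 1.20 on the P14.5 arrays, fell by 3.60 (SE 0.22, adjusted p = 2.49e-09) and was at least 2.27-fold lower at P14.5. The P14.5 values of 1.20 are the floor set for signals near 0 and have no order. miR-541-5p fell by 3.27 (SE 0.21, adjusted p = 3.39e-09) and was at least 1.62-fold lower. miR-154-3p fell by 2.96 (SE 0.22, adjusted p = 1.52e-08) and was at least 1.77-fold lower. For miR-154-3p, array 4 was the highest of the P2.5 arrays at 4.90. The remaining 3, miR-487b-3p, miR-433-3p and miR-380-3p, fell by 2.84, 2.88 and 2.87 and were at least 1.66-fold, 1.27-fold and 1.23-fold lower (adjusted p = 9.95e-07, 5.09e-09 and 1.49e-07).

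Among the 37, miR-494-3p, miR-376b-3p and miR-299-3p did not pass. miR-494-3p read 7.81, 8.03, 8.26 and 8.25 on the P2.5 arrays and 9.03, 8.61, 9.03 and 8.93 on the P14.5 arrays, so every P14.5 array lay above every P2.5 array, but the difference of 0.81 (SE 0.47, adjusted p = 0.134) did not pass in the fit that also uses the spread at P3.5 and P5.5. It passed with the 8 arrays of the 2 groups alone (adjusted p = 6.64e-04) and in the methods' t-test (adjusted p = 0.00323), and in no other alternative. miR-376b-3p read 4.95, 4.36, 4.32 and 5.39 on the P2.5 arrays and 4.71, 4.56, 3.78 and 6.33 on the P14.5 arrays. Its groups overlapped, with array 28 the highest of the 8, and the difference of 0.090 (SE 0.59, adjusted p = 0.893) became -0.40 without array 28. Its value was also below 0 without array 2 (-0.042), without array 3 (-0.056), with scaling to all probes (-0.32), with the total gene signal (-0.19) and in the deposited series table (-0.15). miR-299-3p lay near the floor at both ages, with a difference of -0.46 (SE 0.20, adjusted p = 0.0542), and without array 3, at the floor at P2.5, it fell by 0.61 (adjusted p = 0.0127). It also passed as lower in 7 other alternatives (adjusted p from 1.03e-08 to 0.0328), among them the 8 arrays alone, all 32 arrays and quantile normalization, and was at 0.12 under normexp correction. The median of the 37 changed by 0.10 from P2.5 to P3.5, by -0.72 from P3.5 to P5.5 and by -1.67 from P5.5 to P14.5. In amount, the fall thus lay mostly after P5.5, in the longest interval, and rates per day were not compared. The normoxia arrays of P3.5 and P5.5 shared no slide. In the last interval 33 of the 34 that fell lost over 1 log2 unit. The miR-3072-5p probe lay in the same stretch of chromosome 12, and this miRNA rose by 3.20 (SE 0.39, adjusted p = 2.81e-06).

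**Figure D2:**
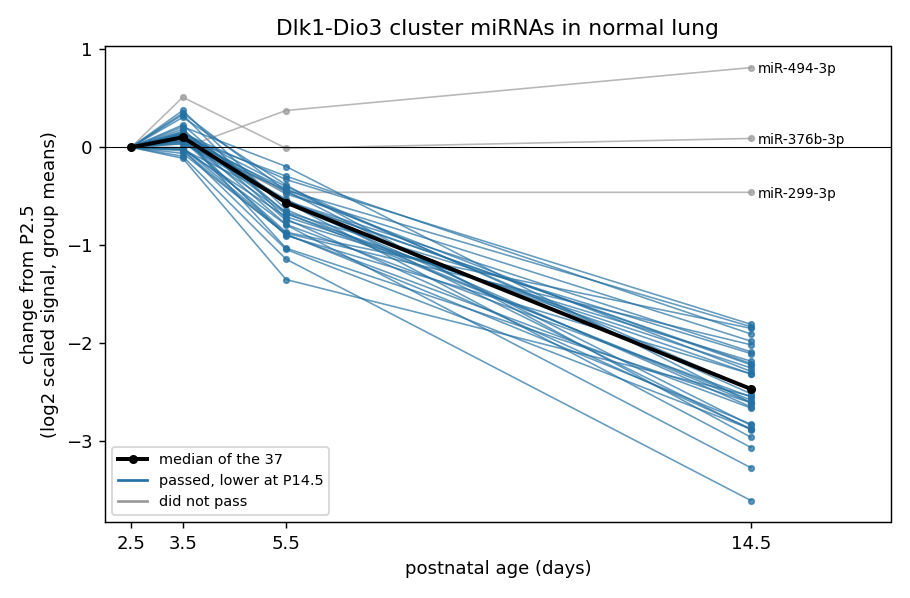
Change from P2.5 of the 37 tested Dlk1-Dio3 miRNAs in normoxia (y axis, difference of group means in log2 scaled signal, n = 4 arrays per age) against postnatal age in days (x axis). Each thin line is 1 miRNA and the thick line is the median of the 37, which reached -2.47 at P14.5. The 3 labelled lines did not pass at P14.5.

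Imprinted miRNAs outside chromosome 12 also fell, with 1 exception. Of 10 listed, 6 were tested, 5 fell and 1 rose, with a median of -1.58, beside 47.1% that fell among all miRNAs tested. miR-335-5p, from an intron of the imprinted gene Mest, read 9.11, 9.22, 9.26 and 9.12 on the P2.5 arrays and 7.31, 7.27, 7.23 and 7.07 on the P14.5 arrays. Its groups were separated by more than 1.5 log2 units, and it fell by 1.96 (SE 0.074, adjusted p = 2.23e-11). The other arm, miR-335-3p, fell by 2.31 (SE 0.18, adjusted p = 2.58e-08) and was well above background on 2 of the P14.5 arrays. miR-675-3p, cut from the H19 RNA, read 3.33, 3.00, 2.73 and 3.48 on the P2.5 arrays and 1.20, 1.20, 1.20 and 1.20 on the P14.5 arrays, so that all P14.5 arrays lay at the floor. It fell by 1.93 (SE 0.21, adjusted p = 9.07e-07), a size that depends on the floor. With a floor 4 times higher its difference was -0.10 and did not pass (adjusted p = 0.485). miR-296-5p, from the Gnas region, fell by 1.23 (SE 0.11, adjusted p = 1.38e-07). The 2 arms of miR-483, a miRNA of an Igf2 intron whose probes mapped to chr7:149840845-149840893 (mm9), had differences of opposite sign. miR-483-3p read 3.57, 3.67, 3.57 and 4.31 on the P2.5 arrays and 2.54, 2.54, 2.47 and 3.75 on the P14.5 arrays. Arrays 4 and 28 were each the highest of their age and the groups overlapped, and it fell by 0.95 (SE 0.30, adjusted p = 0.00982). It was well above background on no P14.5 array, and its bound, at least 1.00-fold lower, gave no fold without array 4, 25, 26 or 27. The methods' t-test (adjusted p = 0.0629), the fit of all 32 arrays (0.0565) and a floor 4 times higher (0.124) gave no call, so the fall of this arm is uncertain. miR-483-5p read 1.20, 1.20, 1.20 and 1.20 on the P2.5 arrays and 5.73, 4.01, 5.48 and 3.90 on the P14.5 arrays. It lay at the floor on all P2.5 arrays and rose by 3.58 (SE 0.32, adjusted p = 1.03e-07), at least 2.29-fold. Under normexp correction the differences of miR-675-3p and miR-483-3p were 0.0098 and 0.064 and did not pass. Those of miR-335-3p and miR-296-5p were -0.32 and -0.47 and did not pass either (adjusted p = 0.392 and 0.0872).

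All 8 tested members of miR-17-92, a cluster that promotes proliferation, fell, with a median of -1.13, and all 3 of its relative miR-106b-25 fell, with a median of -0.44. Beside these stands the 47.1% of all miRNAs tested that fell. miR-19a-3p read 8.19, 8.08, 8.02 and 8.25 on the P2.5 arrays and 6.58, 6.68, 6.64 and 6.63 on the P14.5 arrays. The P14.5 arrays lay within 0.1 log2 units of each other, well below the P2.5 arrays, and miR-19a-3p fell by 1.51 (SE 0.067, adjusted p = 1.41e-10). miR-18a-5p fell by 1.35 (SE 0.069, adjusted p = 5.68e-10), miR-20a-5p by 0.73 and miR-92a-3p, whose probes map to 2 positions, by 0.66. miR-20a-3p and miR-17-5p, which were near the detection limit, fell by 1.85 and 1.23, but under normexp correction their differences were 0.052 and 0.092. miR-20a-3p was well above background on 1 of the P14.5 arrays, and with the dim values raised to the detection limit its difference was 0.55. The smallest change of those named was that of miR-93-5p, which fell by 0.32 (SE 0.071, adjusted p = 9.44e-04). In amount, most of the fall came in the last interval, which was also the longest. The cluster's median changed by -0.077, -0.19 and -0.80 over the 3 intervals, and rates per day were not compared.

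The miR-130 family, to which miR-301a and miR-301b belong and whose members share a seed, fell in all 4 members, by amounts that differed widely. Of all miRNAs tested, 47.1% fell. miR-130b-3p read 7.16, 6.97, 6.92 and 7.19 on the P2.5 arrays and 4.44, 4.79, 4.72 and 4.48 on the P14.5 arrays. The groups were more than 2 log2 units apart, and it fell by 2.45 (SE 0.087, adjusted p = 1.28e-11). miR-301b-3p, whose probe lay close by on chromosome 16, reached the floor on every P14.5 array and fell by 2.59 (SE 0.14, adjusted p = 8.83e-10). Its bound, at least 1.01-fold lower, gave no fold without array 1, 4, 25, 26 or 27. miR-301a-3p fell by 1.26 (SE 0.10, adjusted p = 1.65e-08). miR-130a-3p read 11.63, 11.69, 11.64 and 11.64 on the P2.5 arrays and 11.10, 11.28, 11.22 and 11.19 on the P14.5 arrays. It fell by only 0.45 (SE 0.055, adjusted p = 3.03e-06), though with no overlap between the ages.

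The X-linked cluster of miR-322 and miR-503, whose members target cell cycle genes, lay at chrX:50401188-50407512 (mm9) for 7 of its tested members. All 8 tested fell, with a median of -0.68, beside 47.1% of all miRNAs tested. miR-322-5p read 12.14, 11.69, 11.76 and 12.09 on the P2.5 arrays and 10.22, 10.56, 10.32 and 10.37 on the P14.5 arrays. All P14.5 arrays lay more than 1 log2 unit below all P2.5 arrays, and it fell by 1.55 (SE 0.10, adjusted p = 5.09e-09). miR-503-5p fell by 1.28 (SE 0.079, adjusted p = 2.71e-09) and miR-322-3p by 1.85 (SE 0.17, adjusted p = 1.55e-07). miR-322-3p was well above background on 3 of the P14.5 arrays. The other 5 tested members moved less, with falls from 0.31 for miR-542-5p and 0.34 for miR-542-3p to 0.70 for miR-450b-3p, and miR-351-5p fell by 0.56. Under normexp correction the difference of miR-351-5p was 0.085 and those of miR-322-3p, miR-450b-3p, miR-542-3p and miR-542-5p were -0.17, -0.050, -0.090 and -0.0069. None of these passed with that correction (adjusted p from 0.74 to 0.98). In the fit of all 32 arrays miR-450b-3p (adjusted p = 0.0512), miR-351-5p and both miR-542 arms did not pass. The miR-542 arms also did not pass with quantile normalization or in the deposited series table.

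The let-7 family did not move as 1 unit. These miRNAs repress growth genes such as Lin28 and Hmga2. Of 9 tested, 3 rose, 1 fell and 5 did not pass, beside 26.3% higher among all miRNAs tested. let-7b-5p read 10.92, 11.21, 11.19 and 10.96 on the P2.5 arrays and 12.18, 12.41, 12.29 and 12.40 on the P14.5 arrays. All P14.5 arrays lay almost 1 log2 unit above all P2.5 arrays, and let-7b-5p rose by 1.25 (SE 0.079, adjusted p = 3.25e-09). let-7c-5p, whose probes map to 2 positions, rose by 1.01 (SE 0.081, adjusted p = 3.11e-08). let-7i-5p rose by 0.19 (SE 0.068, adjusted p = 0.019), with overlapping groups, and did not pass without array 1, 4, 26 or 27 (adjusted p from 0.0561 to 0.0656). miR-98-5p, an X-linked member with the same seed, fell by 0.39 (SE 0.10, adjusted p = 0.00307). The median of the 9 was 0.054, but it was -0.36 with scaling to all probes, -0.22 with the total gene signal and -0.02 in the deposited series table. let-7i-5p turned to -0.22 and -0.084 under the first 2 of these.

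The miR-15/16 family, which represses cyclins and other cell cycle genes, split by gene. miR-195-5p and miR-497-5p, which lie close together on chromosome 11, both rose. miR-195-5p read 8.93, 8.99, 8.98 and 8.78 on the P2.5 arrays and 9.94, 10.31, 10.01 and 10.06 on the P14.5 arrays. miR-497-5p read 9.01, 9.24, 9.19 and 8.87 on the P2.5 arrays and 10.15, 10.38, 10.34 and 10.29 on the P14.5 arrays. Neither had any overlap between the ages, and they rose by 1.16 (SE 0.085, adjusted p = 1.31e-08) and 1.21 (SE 0.085, adjusted p = 7.75e-09). miR-322-5p, described above, had the largest fall of the family. miR-15b-5p read 10.55, 10.59, 10.55 and 10.57 on the P2.5 arrays and 9.54, 9.88, 9.48 and 9.66 on the P14.5 arrays and fell by 0.93 (SE 0.087, adjusted p = 1.69e-07). miR-16-5p fell by 0.20 (SE 0.067, adjusted p = 0.016), and without array 25 it did not pass (adjusted p = 0.0527). The median of the 6 tested was -0.084. miR-195-5p and miR-497-5p stayed higher under all scalings and corrections that were run.

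**Figure D3:**
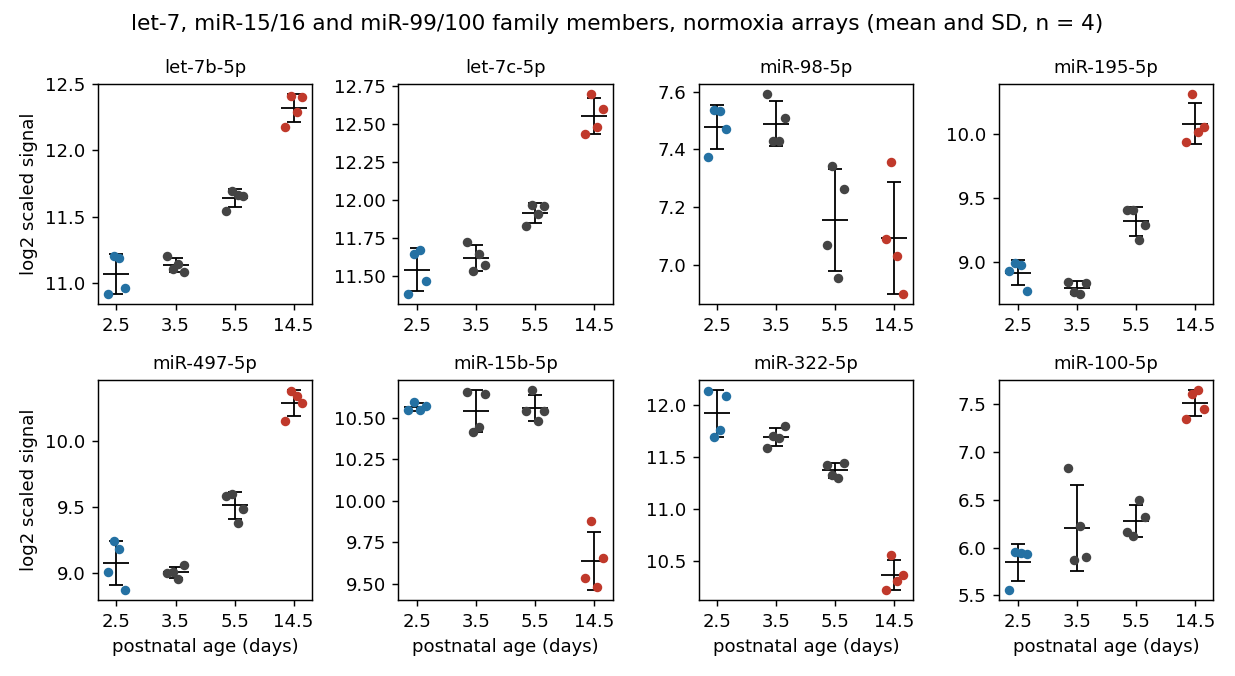
Values of 8 miRNAs of the let-7, miR-15/16 and miR-99/100 families on the normoxia arrays (y axes, log2 scaled signal, each panel on its own range that does not start at 0) against postnatal age in days (x axes). Points are arrays, with the mean and SD of 4 arrays per age. let-7b-5p, let-7c-5p, miR-195-5p, miR-497-5p and miR-100-5p sit higher at P14.5 than at P2.5 without overlap, and miR-98-5p, miR-15b-5p and miR-322-5p sit lower.

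Members of other families rose as well. miR-100-5p, a relative of miR-99a that has Mtor among its targets, read 5.55, 5.95, 5.95 and 5.94 on the P2.5 arrays and 7.35, 7.61, 7.65 and 7.45 on the P14.5 arrays. The P14.5 arrays lay far above the P2.5 arrays, among which array 1 was lowest, and it rose by 1.67 (SE 0.18, adjusted p = 7.63e-07). miR-99a-5p rose by 0.53 (SE 0.083, adjusted p = 3.71e-05). Of the collagen-repressing miR-29 family, miR-29a-3p rose by 0.46 (SE 0.13, adjusted p = 0.00532) and miR-29c-3p by 0.73 (SE 0.14, adjusted p = 2.35e-04), while the third member did not pass. miR-125b-5p rose by 0.72 (SE 0.16, adjusted p = 8.61e-04), and its seed partner miR-125a-5p fell by 0.37 (SE 0.15, adjusted p = 0.0362), with overlapping groups and no call without array 2, 3, 4, 25 or 27 (adjusted p from 0.0593 to 0.125). The opposite arm of the same hairpin, miR-125a-3p, is among the largest rises below. miR-222-3p rose by 0.87 (SE 0.17, adjusted p = 3.10e-04) and did not pass under normexp correction. miR-29a-3p, miR-29c-3p, miR-99a-5p and miR-125b-5p kept their direction under scaling to all probes but did not pass.

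A further set of rises was small enough to depend on the scaling. miR-30a-5p rose by 0.51, miR-181a-5p by 0.44 and miR-23b-3p by 0.54 (adjusted p = 3.22e-05, 0.00331 and 2.89e-05), and under scaling to all probes these kept their direction without passing. miR-30d-5p, miR-181c-5p, miR-27b-3p, miR-10a-5p and miR-101a-3p rose by 0.28, 0.39, 0.31, 0.32 and 0.40, and under scaling to all probes they turned to -0.13, -0.026, -0.10, -0.097 and -0.012. miR-30d-5p did not pass without array 1, 4 or 28 (adjusted p from 0.0591 to 0.0754). The miR-23b and miR-27b probes lay at chr13:63401805-63402579 (mm9), a cluster of which all 3 tested members rose. Opposite to their relatives, miR-30b-5p fell by 0.27 (SE 0.086, adjusted p = 0.00967) and miR-10b-5p by 0.66 (SE 0.22, adjusted p = 0.0138).

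miRNAs that mark cell types moved with age as well. The erythroid miRNAs of chr11:77886512-77886709 (mm9) had the largest change of these, and all 3 tested fell, beside 47.1% of all miRNAs tested. miR-451, which red cell precursors make in large amounts, read 12.06, 11.85, 11.55 and 12.25 on the P2.5 arrays and 9.25, 9.29, 9.20 and 9.13 on the P14.5 arrays. All P14.5 arrays lay more than 2 log2 units below all P2.5 arrays, and it fell by 2.71 (SE 0.30, adjusted p = 9.01e-07). miR-144-3p fell by 2.93 (SE 0.31, adjusted p = 5.57e-07) and miR-144-5p by 3.04 (SE 0.35, adjusted p = 1.41e-06). Of the P14.5 arrays, miR-144-5p was well above background on 1, and with the dim values raised to the detection limit its difference was -0.89. The summed erythroid level ran from 11.6 to 12.4 at P2.5 and from 9.21 to 9.38 at P14.5, so it was lower at the same age as the other miRNAs that fell, and its part in those results was not tested. Of 5 leukocyte miRNAs tested, 1 fell. This was the myeloid miR-223-3p, which read 8.80, 8.99, 8.72 and 8.76 on the P2.5 arrays and 7.61, 7.72, 7.60 and 7.65 on the P14.5 arrays and fell by 1.17 (SE 0.11, adjusted p = 1.80e-07). The endothelial miR-126-3p read 12.68, 12.86, 12.93 and 12.67 on the P2.5 arrays and 13.16, 13.39, 13.33 and 13.31 on the P14.5 arrays. Its groups did not overlap and it rose by 0.51 (SE 0.082, adjusted p = 4.23e-05), though by 0.099 and without passing under scaling to all probes. miR-126-5p, the other arm, had a difference of 0.19 and did not pass (adjusted p = 0.2), with -0.23 under scaling to all probes and -0.089 with the total gene signal.

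Epithelial miRNAs fell together by modest amounts. All 6 tested fell, with a median of -0.54, and none of their groups overlapped. Among all miRNAs tested, 47.1% fell and 71.7% had no overlap. miR-200b-3p, a repressor of Zeb1 and Zeb2, read 10.18, 10.04, 10.07 and 10.15 on the P2.5 arrays and 9.22, 9.41, 9.22 and 9.29 on the P14.5 arrays. It fell by 0.83 (SE 0.072, adjusted p = 7.63e-08). miR-200c-3p, miR-141-3p, miR-200a-3p and miR-429-3p fell by 0.57, 0.59, 0.52 and 0.43. miR-375-3p fell by 0.47 (SE 0.086, adjusted p = 1.52e-04). The cluster of miR-183, miR-96 and miR-182, also of epithelia, fell in all 3 members, by 0.56 for miR-183-5p, 0.55 for miR-96-5p and 1.35 for miR-182-5p. The last was well above background on 2 of the P14.5 arrays. Under normexp correction miR-183-5p, miR-96-5p and miR-182-5p were at -0.11, -0.30 and 0.015 and miR-375-3p was at -0.0074. None of these passed with that correction (adjusted p from 0.0646 to 0.977). miR-449a-5p, a miRNA of multiciliated cells, read 9.78, 9.46, 9.40 and 9.59 on the P2.5 arrays and 7.77, 8.05, 7.91 and 7.88 on the P14.5 arrays. It fell by 1.65 (SE 0.14, adjusted p = 5.80e-08) with no overlap, and the other 2 ciliated markers did not pass. miR-34a-5p, whose gene p53 activates and which has the same seed, fell by 0.34 (SE 0.075, adjusted p = 8.31e-04).

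Among mesenchymal miRNAs, the miR-199a and miR-214 pair and the miR-143 and miR-145 cluster differed. All 4 tested arms of miR-199a and miR-214 fell, with a median of -1.04, beside 47.1% of all miRNAs tested. Of these arms, 2 also fell in the contrast built from ages that shared slides. miR-214-5p fell by 0.96, a size that depends on the floor, at which it lay on the P14.5 arrays of both slides. miR-143-3p and miR-145-5p, which mark smooth muscle, did not pass, with a median of 0.049. miR-199a-5p read 9.53, 9.55, 9.49 and 9.62 on the P2.5 arrays and 7.97, 8.12, 8.10 and 8.04 on the P14.5 arrays. The groups were far apart, and miR-199a-5p fell by 1.49 (SE 0.094, adjusted p = 3.35e-09). miR-199a-3p fell by 0.75 (SE 0.077, adjusted p = 4.65e-07). miR-214-3p read 7.48, 7.44, 7.37 and 7.57 on the P2.5 arrays and 7.02, 5.73, 6.82 and 5.79 on the P14.5 arrays. Arrays 25 and 27 of slide 5 lay more than 1 log2 unit above arrays 26 and 28 of slide 4, and the fall of 1.12 (SE 0.23, adjusted p = 4.91e-04) was shared by both slides. In the methods' t-test it did not pass (adjusted p = 0.0605). Of 7 heart and skeletal muscle miRNAs, 3 were tested and did not pass, and miR-208a-3p and miR-499-5p were detected on no array. The brain markers miR-124-3p and miR-9-5p were also detected on no array, and the liver marker was not tested.

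The largest single fall lay outside these lists. miR-135b-5p read 6.07, 5.69, 5.78 and 6.05 on the P2.5 arrays and 2.01, 2.02, 1.64 and 1.94 on the P14.5 arrays. It was well above background on all P2.5 arrays and on no P14.5 array, fell by 3.99 (SE 0.14, adjusted p = 1.28e-11) and was at least 4.35-fold lower. Under normexp correction it was at -0.65 (adjusted p = 0.0507), and of the 12 largest falls miR-144-3p and miR-376a-3p passed with that correction and the other 10 did not. It changed by -0.66, -1.0 and -2.33 over the 3 intervals. miR-205-5p, a miRNA of squamous and basal epithelium, read 4.04, 3.81, 3.52 and 6.99 on the P2.5 arrays and 1.20, 1.35, 1.53 and 1.20 on the P14.5 arrays. Array 4 was far above the other P2.5 arrays, and the fall of 3.27 (SE 0.87, adjusted p = 0.00314), at least 1.76-fold lower, was a difference of -2.47 without array 4 (adjusted p = 0.0108), with a bound of at least 1.01-fold lower. With a floor 4 times higher the difference was -1.39 and did not pass (adjusted p = 0.171).

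The 12 largest rises were of a different kind. They lay in no family list other than the imprinted one and those with a RefSeq sequence shared no seed, and their targets in the lung are not described here. miR-5130 read 1.20, 1.20, 1.20 and 1.20 on the P2.5 arrays and 6.36, 4.75, 6.10 and 4.88 on the P14.5 arrays. It was at the floor on all P2.5 arrays and rose by 4.32 (SE 0.37, adjusted p = 7.34e-08), at least 3.84-fold. miR-1967 read 1.20, 1.70, 1.20 and 1.20 on the P2.5 arrays and 6.15, 5.14, 6.05 and 5.26 on the P14.5 arrays and rose by 4.32 (SE 0.31, adjusted p = 1.15e-08), at least 4.18-fold. miR-3472 read 2.5, 2.53, 2.49 and 3.22 on the P2.5 arrays and 7.46, 6.27, 7.27 and 6.58 on the P14.5 arrays and rose by 4.21 (SE 0.33, adjusted p = 2.83e-08), at least 9.93-fold. The lowest P14.5 array was above the highest P2.5 array by 3 log2 units or more for each of these. miR-5128 was above background at both ages. It read 6.67, 7.00, 6.37 and 7.46 on the P2.5 arrays and 11.08, 10.12, 10.74 and 10.78 on the P14.5 arrays and rose by 3.80 (SE 0.36, adjusted p = 1.80e-07). The bounds for miR-1894-3p, miR-5118 and miR-3102-5p.2-5p were at least 4.95-fold, 2.49-fold and 6.12-fold, with rises of 3.55, 3.47 and 3.22. miR-671-5p, miR-3960 and miR-125a-3p rose by 3.47, 3.06 and 2.95, and miR-671-5p and miR-3072-5p were well above background on 1 of the P2.5 arrays.

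Most of the 12 differed between the slides of the P14.5 arrays. Both arrays of slide 5 lay above both arrays of slide 4 for miR-5130 (6.36 and 6.10 against 4.75 and 4.88) and for miR-3960 (9.86 and 9.66 against 7.65 and 8.22). For 9 of the 12, the arrays of the 2 slides did not overlap, beside 44.1% of all miRNAs tested. The median difference of slide 5 minus slide 4 was 1.21 over the 12 (from -0.041 to 1.83) and -0.034 over all miRNAs tested. The slide difference was not limited to the 12. Of the 43 miRNAs that rose by over 1 log2 unit, 31 had no overlap between the slides, and their median difference was 0.90. Slide 5 lay more than 1 log2 unit above slide 4 for 19 of these 43 and for 21 of all 297 tested. Within slide 4, which also held P5.5 arrays 18 and 20, all 12 were higher at P14.5 than at P5.5 without overlap, by 1.90 to 4.00. All 43 were so too, beside 31.6% of all miRNAs tested. The 12 and the 43 were chosen for high values on P14.5 arrays that include those of slide 4. These counts are therefore largely set by that choice and are no independent support for the rises. The part of the slide, or of the scan date that went with it, in the size of these rises was not tested beyond these values.

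**Figure D4:**
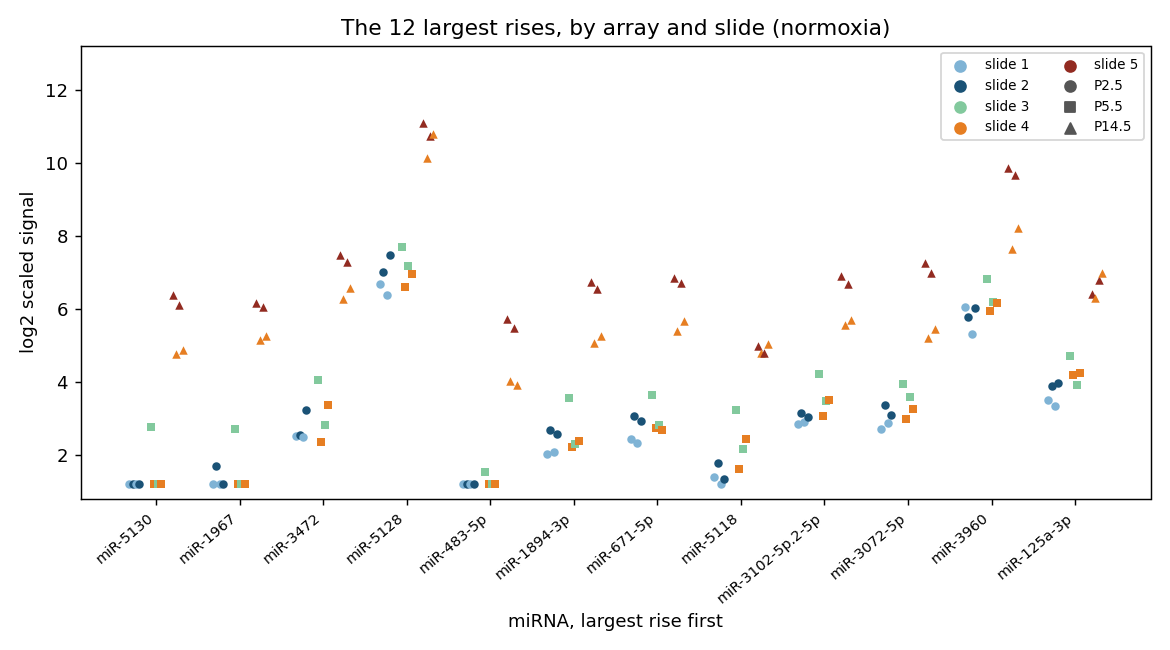
Log2 scaled signal (y axis) of the 12 miRNAs with the largest rises (x axis, largest first) on the normoxia arrays of P2.5, P5.5 and P14.5, with the marker shape for age and the colour for slide. For miR-5130, the P14.5 arrays lay at 6.36 and 6.10 on slide 5 and at 4.75 and 4.88 on slide 4, and both slides sit above the P5.5 arrays.

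The miRNAs with the larger rises were also richer in G and C. The median G and C content of the probes' sequences was 65.2% for the 43 miRNAs that rose by over 1 log2 unit, 45.8% for the 76 that fell by over 1 log2 unit and 48.5% for all miRNAs tested. In the RefSeq mature sequences it was 57.2% (32 miRNAs with a sequence), 45.5% (64) and 47.5% (240). The G-rich sequences of miR-5130 and miR-671-5p printed above are examples. These shares describe the members and were not tested.

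The contrast built from ages that shared slides, P3.5 minus P2.5 plus P14.5 minus P5.5 with slide as a block, is not the same quantity, since it leaves out the change from P3.5 to P5.5, and its P14.5 arrays all lay on slide 4. It called 165 miRNAs (55.6%), with 53 higher and 112 lower, and 157 of these had passed in the same direction in the direct comparison. Both comparisons use the P2.5 arrays and the P14.5 arrays of slide 4, so their calls are not independent. The exception in direction was miR-181b-5p, at 0.29 in the direct comparison and -0.43 within slides. Of the Dlk1-Dio3 miRNAs tested, 34 of 37 fell within slides. All 8 of miR-17-92, 6 of 8 of the cluster of miR-322 and miR-503 and all 3 erythroid miRNAs did so, beside 37.7% of all miRNAs tested. miR-135b-5p changed by -3.11 within slides (adjusted p = 1.71e-06), miR-130b-3p by -2.13 (4.90e-06), let-7b-5p by 0.79 (5.53e-04) and miR-195-5p by 0.72 (0.00131). miR-205-5p changed by -1.68 and did not pass (0.413). miR-5130 changed by 3.62 (8.28e-05) and miR-3960 by 1.44 (0.00696). With array 28 left out, so that 1 P14.5 array remained on slide 4, 132 miRNAs passed.

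The age change in normoxia was set against that in hyperoxia by an interaction test over all 32 arrays. Of the 297 tested, 106 (35.7%) changed differently with age in the 2 exposures. Of these, 73 (24.6% of all tested) had a lower value of the change in hyperoxia and 33 (11.1%) a higher one. The P14.5 hyperoxia arrays spread more than the others. Their pairwise correlations ran from 0.845 to 0.980, against 0.979 to 0.998 for the P14.5 normoxia arrays, and their arrays 29 and 31 also had a labelling control below the accepted range. Without arrays 28, 29 and 31, 129 miRNAs (43.4%) passed. Under scaling to all probes 38 passed, and under normexp correction 31 passed.

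Several miRNAs that rose in normoxia had a lower value of the change in hyperoxia, at or below 0. Over all miRNAs tested the median change was -0.63 in hyperoxia and -0.20 in normoxia, and the median of the differences between them was -0.15. Values in hyperoxia are to be read beside these medians. miR-195-5p changed by -0.63 in hyperoxia, -1.79 from its change in normoxia (SE 0.29, adjusted p = 2.27e-05). For let-7b-5p the change in hyperoxia was -0.020, a difference of -1.27 (adjusted p = 5.16e-04). For miR-497-5p the difference was -1.35, for miR-100-5p -1.74 and for miR-126-3p -1.39 (adjusted p = 7.48e-09, 1.62e-06 and 2.17e-04). Without arrays 28, 29 and 31 these differences were -1.44 for miR-195-5p, -1.09 for let-7b-5p, -1.33 for miR-497-5p, -1.67 for miR-100-5p and -1.07 for miR-126-3p, and all 5 passed. Among miRNAs that fell, miR-322-5p and miR-503-5p fell further in hyperoxia, by differences of -1.78 and -1.64 (adjusted p = 4.43e-05 and 6.58e-09), and 7 of the 8 tested members of their cluster did so. The opposite held for miR-135b-5p, with -2.33 in hyperoxia and a difference of 1.66 (adjusted p = 3.94e-05), and for 17 of the 37 Dlk1-Dio3 miRNAs, none of which differed the other way. Without the 3 arrays 8 of these 37 passed. miR-34a-5p changed by -0.34 in normoxia and by 1.78 in hyperoxia, a difference of 2.12 (SE 0.17, adjusted p = 1.84e-10). The 12 largest rises in normoxia did not pass this test. Their values of the difference ran from -0.50 for miR-3472 to 1.13 for miR-5128, and the lowest adjusted p was 0.235 for miR-3960.

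**Figure D5:**
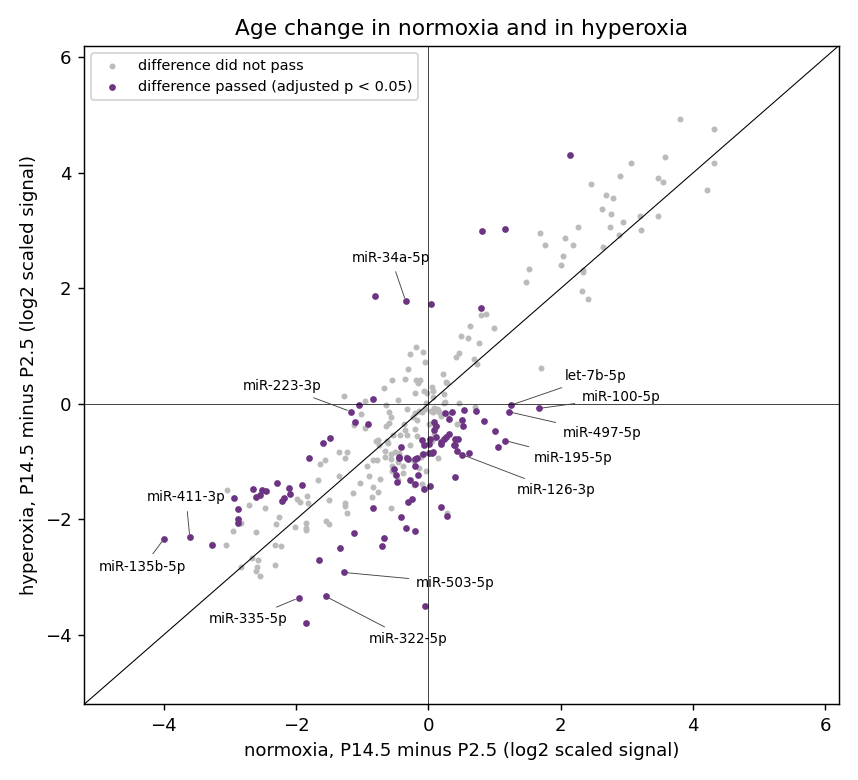
Change from P2.5 to P14.5 in hyperoxia (y axis) against that in normoxia (x axis), both as differences of group means in log2 scaled signal with 4 arrays per group, for the 297 miRNAs tested. Purple points differed between the exposures (106), and the diagonal marks an equal change. miR-195-5p, let-7b-5p and miR-100-5p lie to the right of 0 but near or below 0 in hyperoxia, and miR-34a-5p lies above the diagonal.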

How the data were processed

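MiRNA levels were measured in whole-lung total RNA of 32 pups, and groups were taken from the deposited labels. Members and lists were chosen with earlier results of these data known. Per the file headers, the deposited scanner files hold fluorescence intensity per spot (Cy3) from Agilent Feature Extraction (version 10.7.3.1 in the submitters' processing notes), after background subtraction and without scaling between arrays, with probe positions on mm9. The deposited files also hold other values, which are 0 or 1 flags for signal above background, saturation and outliers. A deposited series table holds log2 signals per miRNA, made by the authors in a way not given in the sources used here, and was used as an alternative. It left 0 unused sample columns. The labels describe a cRNA labelling kit, while the headers name an miRNA array, and this was not resolved.

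Spots without an outlier flag were averaged per probe (2754 probes). Arrays were scaled to the 75th percentile of the 205 probes well above background on all arrays (median 1166), probes of an miRNA were averaged, signals under a floor of 2.30 were raised to it, and log2 was taken (log2 floor 1.20). An miRNA was detected on an array where the share of spots above background exceeded 0.5 for at least 1 probe. The number of pups, the signal over background and the slides limit the precision. No spot was saturated.

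P14.5 was compared with P2.5 on the 16 normoxia arrays, with Benjamini-Hochberg adjustment over the 297 miRNAs tested at 0.05. The middle ages share the estimate of the spread. The fits were two-sided moderated tests by lmFit and eBayes of limma 3.58.1 (R 4.3.3). Contrasts within slides and an interaction with hyperoxia over 32 arrays were fitted on the same miRNAs, and the fits were tested on simulated data. Of miRNAs that passed, did not overlap and were detected on all 4 arrays of the higher group, the 12 largest rises and falls are named. In addition the tested members of each family or cluster are named, or, where over 6 were tested, the 4 with the largest and 2 with the smallest change. Clusters were also read from the positions, with gaps of up to 10000 bases. Alternatives were other scalings (all probes, quantile), normexp correction (offset 50), total gene signal, the brightest probe, a floor 4 times higher, other detection filters, the methods' t-test, slide as a random block, array weights, other sets of arrays and each array left out. Plots used Python 3.11.15 with numpy 2.4.6, pandas 2.3.3 and matplotlib 3.10.9, and data.table (version 1.17.8) read the files in R.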

Additional observations from a re-analysis of the deposited data

Results flagged for a closer look

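The age change differed between hyperoxia and normoxia for 40 of the named miRNAs (interaction test in limma, adjusted p under 0.05), and the value given for each is the change in hyperoxia minus that in normoxia on the log2 scale. Beside these stands the 35.7% of all miRNAs tested that passed. The difference was above 0 for the Dlk1-Dio3 miRNAs miR-411-3p (1.29), miR-541-5p (0.823), miR-433-3p (1.06), miR-376a-3p (0.887), miR-380-3p (0.813) and miR-494-3p (2.18), of which all but miR-494-3p fell in normoxia. It was also above 0 for miR-135b-5p (1.66), miR-144-3p (1.3), miR-34a-5p (2.12), miR-130b-3p (0.946), miR-199a-5p (0.899) and miR-223-3p (1.04), all of which fell in normoxia. It was below 0 for the let-7, miR-15/16, miR-99/100 and miR-125 members and the endothelial miRNAs, with let-7b-5p (-1.27), let-7c-5p (-1.48), miR-16-5p (-0.759), miR-195-5p (-1.79), miR-497-5p (-1.35), miR-99a-5p (-0.902), miR-100-5p (-1.74), miR-125b-5p (-0.851), miR-126-3p (-1.39) and miR-126-5p (-1.97), of which miR-16-5p fell in normoxia, miR-126-5p did not pass and the others rose. The members of smaller rises and miR-30b-5p, which fell, gave miR-30a-5p (-0.789), miR-30b-5p (-1.04), miR-181c-5p (-1.09), miR-23b-3p (-0.646), miR-27b-3p (-0.577), miR-10a-5p (-0.836) and miR-101a-3p (-1.11). Among miRNAs that fell in normoxia and fell further in hyperoxia were miR-322-5p (-1.78), miR-322-3p (-1.94), miR-503-5p (-1.64), miR-542-5p (-1.38), miR-542-3p (-1.81), miR-450b-3p (-1.75), miR-130a-3p (-0.474) and miR-335-5p (-1.4), and the epithelial and ciliated miRNAs miR-200a-3p (-0.61), miR-375-3p (-0.89) and miR-449a-5p (-1.05). P14.5 hyperoxia arrays 29 and 31 and normoxia array 28 had a labelling control below the accepted range. Without these 3 arrays, miR-376a-3p (0.50, adjusted p = 0.0529) and miR-494-3p (1.90, adjusted p = 0.0712) did not pass and the other 38 did.

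In 11 cases 1 array lay apart from the other 3 of its age by Dixon's criterion, which chance gives for about 1 in 20 groups, and the value is its log2 scaled signal. Array 4 (P2.5) lay above the others for miR-205-5p (6.99), miR-154-3p (4.9), miR-182-5p (4.29) and miR-483-3p (4.31), and below them for miR-542-5p (5.95). The others were miR-200a-3p on P2.5 array 1 (9.18), miR-141-3p on P14.5 array 25 (8.55), miR-93-5p on P14.5 array 27 (7.26), miR-126-5p on P14.5 array 28 (6.9), miR-100-5p on P2.5 array 1 (5.55) and miR-199a-3p on P14.5 array 26 (10.7).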

How the results depend on the processing

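No paired analysis was possible because the numbers in the labels run from 1 to 32 and no number is shared between groups. The 218 calls of the direct comparison became 105 under normexp correction and 136 (of 202 tested) with detection on every array of both groups. The 165 within slides became 19 and 100 under the same settings, and the 106 of the interaction became 31 under normexp correction, 38 with scaling to all probes, 60 with the total gene signal and 58 in the deposited series table. Leaving out 1 array at a time gave 213 to 251, 143 to 169 and 93 to 109 calls, the highest for each without array 28, when 332 miRNAs could be tested. The methods' t-test called 215 before and 209 after Benjamini-Hochberg adjustment, and slide as a random block gave 217. Of the 93 miRNAs checked by name, 89 had passed, of which 40 kept their call and direction in all 23 alternatives and 59 in all but normexp correction. Under normexp correction the sign turned for miR-299-3p (0.12), miR-351-5p (0.085), miR-20a-3p (0.052), miR-17-5p (0.092), miR-182-5p (0.015), miR-675-3p (0.0098) and miR-483-3p (0.064). Under scaling to all probes it turned for miR-376b-3p (-0.32), miR-126-5p (-0.23), let-7i-5p (-0.22), miR-30d-5p (-0.13), miR-181c-5p (-0.026), miR-27b-3p (-0.10), miR-10a-5p (-0.097) and miR-101a-3p (-0.012). With the total gene signal let-7i-5p was at -0.084, miR-126-5p at -0.089 and miR-376b-3p at -0.19, and in the series table miR-376b-3p was at -0.15. Leaving out 1 array at a time gave miR-376b-3p from -0.40 (without array 28) to 0.45 (without array 27), with -0.042 and -0.056 without array 2 or 3. The fits without arrays 28, 29 and 31 were chosen after seeing the data. They gave 217, 132 and 129 calls, and miR-376b-3p was again at -0.40. The cause of these shifts was not tested. Signal over background limits miRNAs near the floor, whose differences depend on it.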
